A study of Mus musculus with 9 samples.

Results

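The transcripts described here are those of 10 genes at the output end of the Hippo pathway: the coactivators Yap1 and Wwtr1 (the gene of TAZ), the TEAD transcription factors Tead1, Tead2, Tead3 and Tead4, and the target or feedback genes Amotl2, Ajuba, Lats2 and Ankrd1. They were chosen by symbol in the platform annotation, which gave 21 probe sets out of 45101 in the table and 10 genes out of 18194. A further probe set, which the platform assigns to both Xpo4 and Lats2, was left out because its signal cannot be given to 1 gene. The arrays were Affymetrix mouse arrays of neurospheres, cells grown as floating colonies, at passage 3. All came from C57BL/6J embryos at embryonic day 12.5, and all media held bFGF and EGF at 20 ng/ml each. SCSC were spinal cord spheres, rNCSC were spheres from dorsal root ganglia (DRG), the sensory ganglia built by neural crest cells, and BMP NCSC were DRG spheres whose medium also held the bone morphogenetic protein BMP4 at 10 ng/ml. Each group had 3 arrays. Nothing in the labels says whether these were separate cultures or embryos, so p-values measure only the spread between arrays, which may be technical.

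In the Hippo pathway, the kinases MST1 and MST2 (genes Stk4 and Stk3), with the scaffold Sav1, activate LATS1 and LATS2. The LATS kinases, with their MOB1 cofactors, phosphorylate YAP and TAZ, which are then held in the cytoplasm or degraded. When the kinases are quiet, YAP and TAZ enter the nucleus, bind TEAD factors on DNA and switch on genes such as Ccn1, Ccn2 and Ankrd1. Some of those targets, among them Lats2 and Amotl2, restrain YAP and TAZ in turn. YAP and TAZ are regulated mostly as proteins, by phosphorylation, location and stability, and arrays measure none of these. In the embryonic nervous system YAP and TEAD factors are known from neural progenitors, and YAP and TAZ from neural crest derivatives and mesenchyme.

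Values are on the log2 scale, made by the authors with GCRMA, so a difference of 1 is a doubling. Unexpressed genes sit near the lower end, at about 2 to 4. Array medians ran from 3.99 to 4.03, and 38.7% to 39.9% of probe sets reached 5. Each gene was represented by its probe set with the highest mean, and 10320 genes that reached 5 on at least 3 arrays were tested with limma. Called, below, means an adjusted p under 0.05 together with an absolute log2 difference of 1 or more. Of the members, 8 were tested, and all 8 would also have passed without the BMP NCSC arrays or on those arrays alone. Tead4 and Ankrd1 were below the filter. A level depends on the probes, so levels are compared between groups for a gene and not between genes. The labels name DRG neural crest spheres, but in rNCSC none of 6 markers of neural crest and peripheral glia (Sox10, Erbb3, Ngfr, Snai2, Tfap2a and Foxd3) reached 5 on all 3 arrays, as in SCSC. All 6 CNS progenitor markers (Sox1, Olig1, Olig2, Pax6, Fabp7 and Nes) reached 5 on every rNCSC and SCSC array, against 1 of 6 in BMP NCSC. Of the 6 crest markers, 5 reached 5 on every BMP NCSC array, as did all 6 of mesenchyme and cartilage. Of neuron markers 2 reached it on every SCSC array and 1 on every BMP NCSC array. No endothelial, microglial or skeletal and heart muscle marker reached it on all arrays of any group. Among rNCSC, replicate 2 had the lowest value for 6 of the 8 tested members. Replicate 3 had the highest for 5 and, over all tested genes, lay farthest from the mean of the other 2 arrays. The root mean square difference was 0.553 for it, 0.455 for replicate 2 and 0.375 for replicate 1. Without replicate 2, limma called 18 genes higher and 53 lower in rNCSC than in SCSC, where it called 0 and 1 with all arrays. No member was among them.

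**Figure D1:**
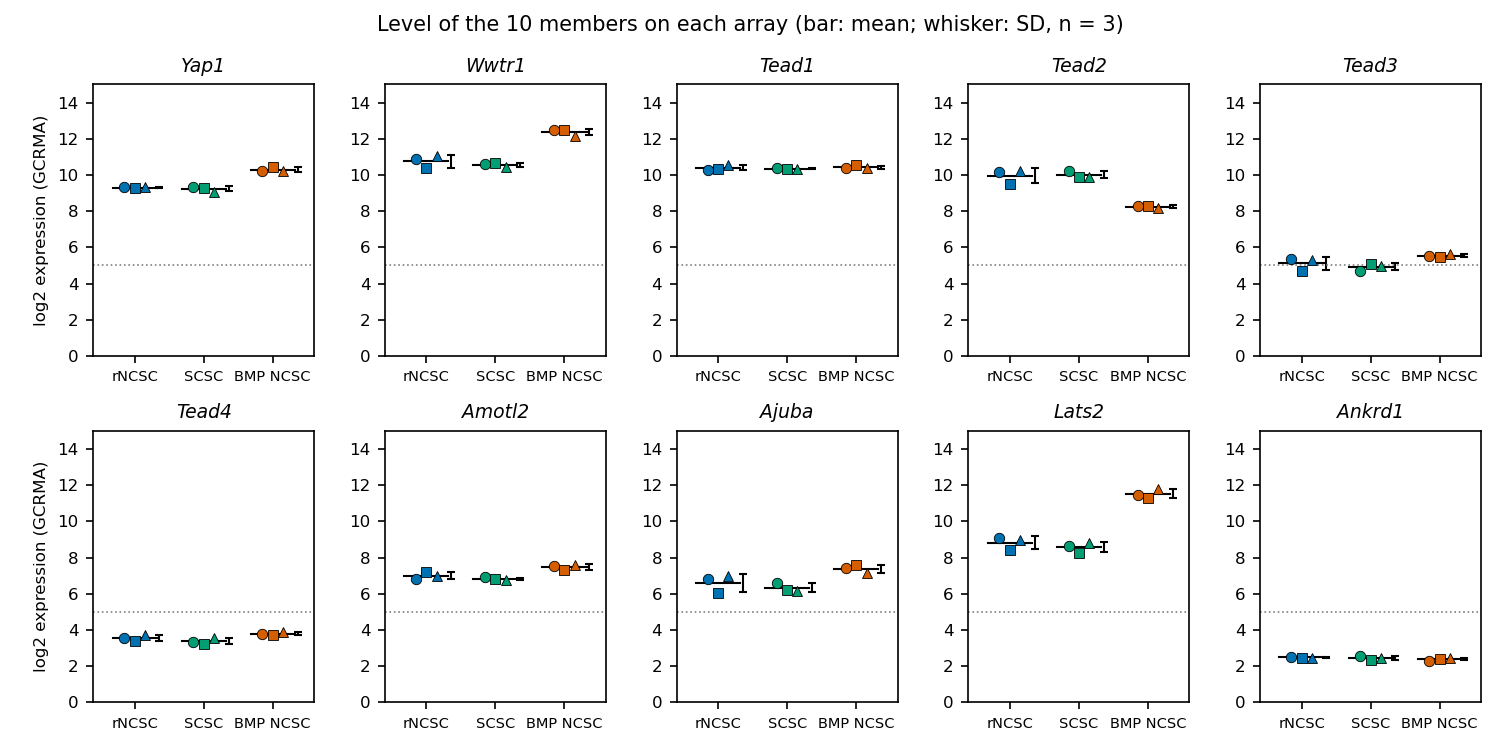
Level of each member on each of the 9 arrays, on the log2 scale (vertical axis), by group. Circles, squares and triangles are replicates 1, 2 and 3, horizontal bars are means, whiskers are SD (n = 3) and the dotted line is the filter level of 5. Wwtr1 and Lats2 lie higher in BMP NCSC than in either other group, Tead2 lies lower, and Tead4 and Ankrd1 stay under the dotted line in all 9.

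Both coactivator transcripts were more abundant in DRG spheres grown with BMP4, Wwtr1 by the larger amount, and the arrays of rNCSC and SCSC overlapped. Wwtr1 was at 10.87, 10.36 and 11.02 in rNCSC, at 10.60, 10.66 and 10.42 in SCSC, and at 12.48, 12.48 and 12.16 in BMP NCSC. All 3 BMP NCSC arrays thus lay above the other 6, which overlapped one another. The mean was 10.75 ± 0.35 in rNCSC, 10.56 ± 0.12 in SCSC and 12.38 ± 0.18 in BMP NCSC (SD, n = 3 each). limma gave a log2 difference of -1.62 (SE 0.18, adjusted p = 3.79e-05) for rNCSC minus BMP NCSC, which is 3.08-fold more in BMP NCSC. For SCSC minus BMP NCSC it was -1.82 (SE 0.18, adjusted p = 1.72e-05), or 3.52-fold. Of all genes tested, 22.6% were called lower in rNCSC than in BMP NCSC and 22.9% lower in SCSC, so calls of this kind are common. Both comparisons share the BMP NCSC arrays and are not independent of each other.

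The other 2 Wwtr1 probe sets moved the same way and further. Probe set 1437155_a_at went from 6.61 ± 0.38 in rNCSC and 6.23 ± 0.17 in SCSC to 8.91 ± 0.38 in BMP NCSC (n = 3 each), and 1417817_a_at from 6.26 ± 0.22 and 5.99 ± 0.12 to 8.33 ± 0.55 (n = 3 each). Fitted on every probe set, their differences for rNCSC minus BMP NCSC were -2.30 (SE 0.23) and -2.07 (SE 0.25). The size of the Wwtr1 difference therefore depends on the probe set, and its direction does not.

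Yap1 lay close to the size limit. Its main probe set, 1448363_at, read 9.31, 9.26 and 9.33 in rNCSC, 9.33, 9.30 and 9.08 in SCSC, and 10.20, 10.46 and 10.23 in BMP NCSC. The BMP NCSC arrays again did not overlap the others. The log2 difference was -0.997 for rNCSC minus BMP NCSC (SE 0.11, limma adjusted p = 3.10e-05), so Yap1 just missed the size limit and was not called. For SCSC minus BMP NCSC it was -1.06 (SE 0.11, adjusted p = 1.92e-05), and Yap1 was called. These values differ little, and the call turns on which side of 1 they fall. Yap1 was called for rNCSC, at -1.003 to -1.05, without rNCSC replicate 1 or 3 or BMP NCSC replicate 1 or 3. It was not called for SCSC without SCSC replicate 3 (-0.984) or BMP NCSC replicate 2 (-0.979), or with array weights (-0.978).

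The second Yap1 probe set showed less. Probe set 1416487_a_at was at 5.86 ± 0.11 in rNCSC, 5.82 ± 0.12 in SCSC and 6.14 ± 0.26 in BMP NCSC (n = 3 each), and BMP NCSC replicate 1, at 5.88, lay within the range of the others. Its difference was -0.29 (SE 0.14, limma adjusted p = 0.095) for rNCSC minus BMP NCSC and -0.32 (SE 0.14, adjusted p = 0.0649) for SCSC. With the mean of both probe sets, the SCSC difference was -0.69 and not called, and the rNCSC difference was -0.64. The 2 probe sets of Yap1 thus disagree on the size of the difference.

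**Figure D2:**
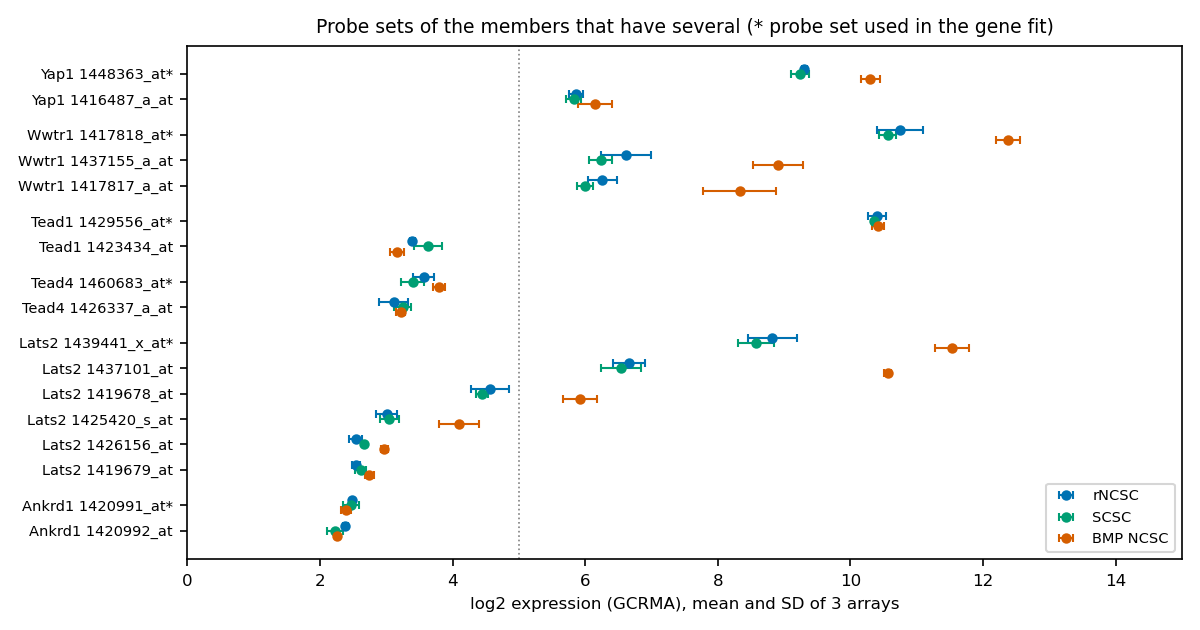
Mean and SD (n = 3) on the log2 scale (horizontal axis) of every probe set of the 6 members that have several, by group; an asterisk marks the probe set used for the gene and the dotted line the filter level of 5. BMP NCSC lies to the right for all 3 Wwtr1 probe sets and for the 3 Lats2 probe sets that passed the filter, while the second Yap1 probe set separates the groups by 0.32 at most.

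The start regions of both coactivator genes hold the hexamer bound by TEAD factors. The motif searched was GGAATG, on both strands (CATTCC on the opposite one), in RefSeq windows of 250 bases before to 50 bases after an annotated start, build GRCm38.p6. Of 32851 windows, 14.7% held it, as did at least 1 window of 16.6% of 27025 genes. Among the members, 8 had windows and 7 of those held a match, or 9 of 12 windows. Tead1 and Tead4 had none in the table. The windows of Wwtr1 overlap in part and hold the same match, which is therefore counted in both. Those of Tead3 also overlap in part but have no match in common. A match is a description of the letters and not evidence of binding. The stretches below are shown because they hold the matches of both coactivators, on the gene's strand from 5′ to 3′, with the match in capitals. Wwtr1 lies on chromosome 3 and its stretch at chr3:57576006-57576081, minus strand, 171 to 96 bases before the start. Yap1 lies on chromosome 9 and its stretch at chr9:8004697-8004772, minus strand, 176 to 101 bases before the start.
Wwtr1: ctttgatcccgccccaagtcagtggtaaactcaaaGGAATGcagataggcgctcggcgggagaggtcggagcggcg
Yap1: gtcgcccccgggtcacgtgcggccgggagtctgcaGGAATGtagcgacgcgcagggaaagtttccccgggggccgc

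The 4 TEAD genes, whose proteins bind that hexamer and recruit YAP or TAZ, did not move together. Tead2 (chr7:45215792-45233468), the TEAD gene best known from early neural progenitors, was the 1 tested member called lower in BMP NCSC. It was at 10.17, 9.50 and 10.24 in rNCSC, at 10.24, 9.89 and 9.90 in SCSC, and at 8.29, 8.31 and 8.17 in BMP NCSC. The 3 BMP NCSC arrays lay below all others, with the lowest array elsewhere being rNCSC replicate 2. The log2 difference was 1.71 (SE 0.20, limma adjusted p = 5.19e-05) for rNCSC minus BMP NCSC and 1.75 (SE 0.20, adjusted p = 4.12e-05) for SCSC minus BMP NCSC. Over all genes, 21.3% and 24.0% were called in that direction. Tead2 was the 1 of the 8 members with windows in which no window held the hexamer. Tead2 has 1 probe set, so this difference has no second probe set to set beside it.

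Tead1 was nearly level. It read 10.30, 10.33 and 10.55 in rNCSC, 10.36, 10.35 and 10.34 in SCSC, and 10.36, 10.52 and 10.37 in BMP NCSC, so the 3 groups overlapped. The difference for rNCSC minus BMP NCSC was -0.02 (95% interval -0.24 to 0.20, limma adjusted p = 0.838), and for SCSC it was -0.07 (-0.29 to 0.15, adjusted p = 0.525). Differences within these intervals are not excluded. A second Tead1 probe set, at 3.16 to 3.62 in the group means, was under the filter. Its 3 BMP NCSC arrays were the lowest, but values that low carry little information.

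Tead3 was close to the filter level, at 5.34, 4.70 and 5.30 in rNCSC, 4.70, 5.08 and 4.99 in SCSC, and 5.53, 5.47 and 5.62 in BMP NCSC. The BMP NCSC arrays were the 3 highest, by a narrow margin. The difference was -0.43 (SE 0.18, limma adjusted p = 0.0569) for rNCSC minus BMP NCSC and -0.62 (SE 0.18, adjusted p = 0.0121) for SCSC, and neither was called. Tead4 was under the filter on all arrays, between 3.23 and 3.89 for one probe set and between 2.92 and 3.35 for the other. At that level GCRMA values carry little information on the size of a difference, and no test was made.

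**Figure D3:**
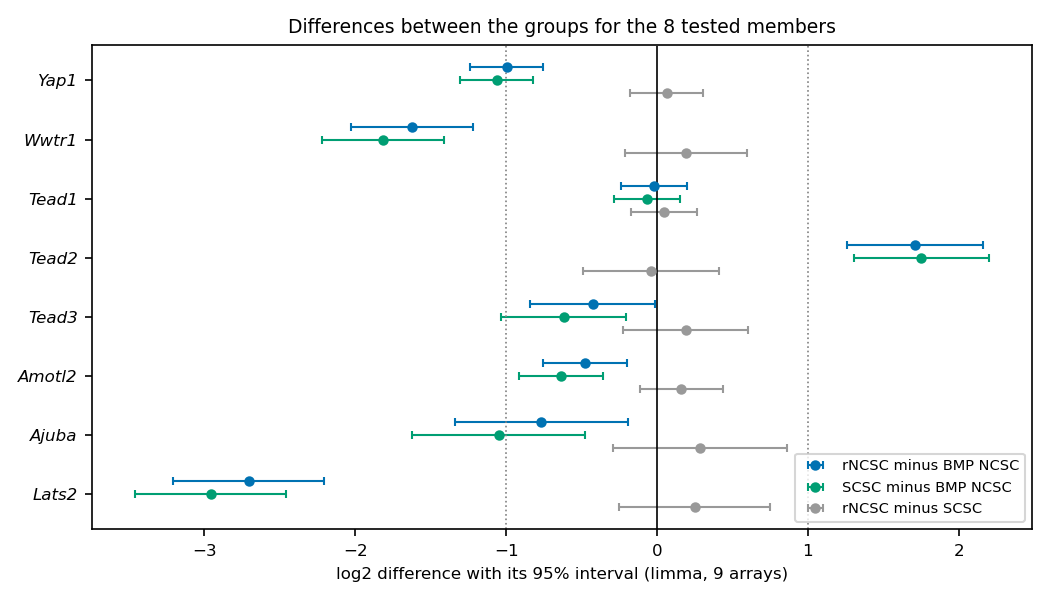
Log2 differences with their 95% intervals (horizontal axis) for the 8 tested members in the 3 comparisons, from 1 limma fit over 9 arrays; dotted lines mark the size limit of 1. Wwtr1 and Lats2 lie wholly left of -1 against BMP NCSC and Tead2 wholly right of 1, while all 8 intervals of rNCSC minus SCSC include 0.

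Lats2 (chr14:57689662-57746212), the kinase that phosphorylates YAP and TAZ and is itself one of their targets, had the largest difference of the 8 tested members. It was at 9.07, 8.40 and 8.99 in rNCSC, at 8.64, 8.27 and 8.80 in SCSC, and at 11.47, 11.31 and 11.81 in BMP NCSC. The gap between the lowest BMP NCSC array and the highest other array exceeded the range within any group. The log2 difference was -2.71 (SE 0.22, limma adjusted p = 5.62e-06) for rNCSC minus BMP NCSC, or 6.53-fold more in BMP NCSC, and -2.96 (SE 0.22, adjusted p = 3.00e-06) for SCSC, or 7.76-fold.

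The other Lats2 probe sets varied in size. The main one, 1439441_x_at, carries the suffix Affymetrix gives to sets whose probes may match other transcripts. Probe set 1437101_at, without that suffix, rose from 6.66 ± 0.24 in rNCSC and 6.54 ± 0.30 in SCSC to 10.56 ± 0.05 in BMP NCSC (n = 3 each), a difference of -3.90 for rNCSC minus BMP NCSC (SE 0.17, limma adjusted p = 1.24e-07). Probe set 1419678_at went from 4.57 ± 0.29 and 4.44 ± 0.10 to 5.92 ± 0.26 (n = 3 each). The remaining 3 of the 6 were under the filter, with means from 2.54 to 4.09. In each of them the 3 BMP NCSC arrays were the highest, but values that low carry little information. With the mean of all 6 probe sets, the difference shrank to -1.61 for rNCSC and -1.66 for SCSC and was still called. The probe set shared with Xpo4 went the other way, at 5.59 to 5.75 in rNCSC, 5.60 to 5.75 in SCSC and 4.96 to 5.22 in BMP NCSC.

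Ajuba, a LIM protein that binds LATS kinases and restrains them, had a smaller difference. Its values were 6.83, 6.03 and 6.98 in rNCSC, 6.62, 6.21 and 6.16 in SCSC, and 7.43, 7.57 and 7.14 in BMP NCSC. All BMP NCSC arrays lay above the rest, but rNCSC replicate 3 came close to the lowest of them. The difference was -0.77 (SE 0.25, limma adjusted p = 0.0207) for rNCSC minus BMP NCSC, below the size limit, and -1.05 (SE 0.25, adjusted p = 0.00427) for SCSC, which was called. The SCSC call was lost without SCSC replicate 2 (-0.991) or 3 (-0.966), without BMP NCSC replicate 2 (-0.955) and with array weights (-0.975). The rNCSC difference was -0.478 without rNCSC replicate 2 and still not called.

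Amotl2, an angiomotin family protein that holds YAP at junctions, read 6.82, 7.18 and 7.01 in rNCSC, 6.91, 6.83 and 6.79 in SCSC, and 7.55, 7.29 and 7.60 in BMP NCSC. The BMP NCSC arrays lay above the other 6, yet the difference stayed below the size limit, at -0.48 (SE 0.12, limma adjusted p = 0.00613) for rNCSC minus BMP NCSC and -0.64 (SE 0.12, adjusted p = 0.00114) for SCSC.

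Ankrd1, an ankyrin repeat protein of heart and skeletal muscle and a widely used YAP reporter gene, was at the lower end of the scale on all arrays. One probe set lay between 2.31 and 2.58 and the other between 2.09 and 2.43. The means were 2.39 and 2.26 in BMP NCSC, 2.48 and 2.38 in rNCSC, and 2.46 and 2.22 in SCSC. Of the 6 skeletal and heart muscle markers none passed the filter, but Tnnt2, the gene of cardiac troponin T, was at 6.34, 6.32 and 3.93 in BMP NCSC and between 2.09 and 2.69 elsewhere. The start regions of Ajuba and Ankrd1 each hold the TEAD hexamer at 2 positions, and are shown because these genes share the feature while Ajuba was measured well above the filter and Ankrd1 was not. The Ajuba stretch is at chr14:54577807-54577882, minus strand, 221 to 146 bases before the start. The Ankrd1 stretches are at chr19:36120014-36120089, 245 to 170 bases before the start, and chr19:36119927-36120002, 158 to 83 bases before it, both minus strand.
Ajuba: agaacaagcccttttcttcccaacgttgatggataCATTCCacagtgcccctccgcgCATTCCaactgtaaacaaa
Ankrd1, farther stretch: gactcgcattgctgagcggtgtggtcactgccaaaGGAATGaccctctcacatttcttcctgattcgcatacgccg
Ankrd1, nearer stretch: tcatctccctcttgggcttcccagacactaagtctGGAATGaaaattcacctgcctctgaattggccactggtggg

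**Figure D4:**
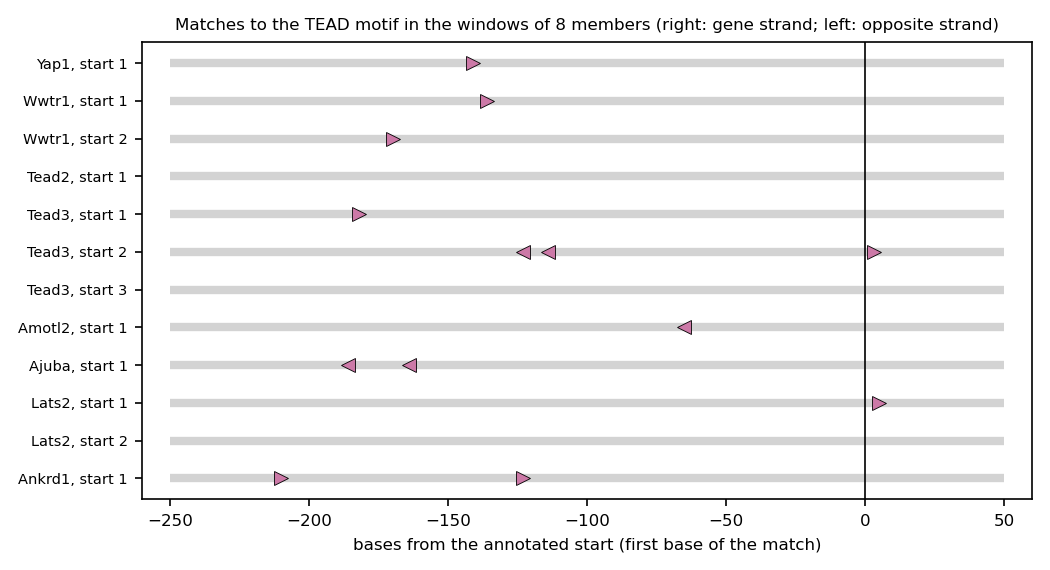
Positions of matches to the TEAD hexamer (horizontal axis, bases from the annotated start to the first base of the match) in the 12 windows of 8 members; grey bars are the windows, and markers point right for the gene's strand and left for the opposite one. Matches lie 65 to 210 bases before the start in 7 windows that have none after it, 5 bases after it in the first Lats2 window, and on both sides of it in 1 Tead3 window.

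Counted over the members, 2 of the 8 tested (Wwtr1 and Lats2) were called lower and 1 (Tead2) higher in rNCSC than in BMP NCSC. In SCSC, 4 (those 2, Yap1 and Ajuba) were called lower and 1 (Tead2) higher, and 2 were lower without SCSC replicate 3 or BMP NCSC replicate 2. Over all genes 43.9% and 46.9% were called in either direction, so nothing particular to the members is read from 3 of 8 and 5 of 8. Of the 13 member probe sets that passed the filter, 6 were called lower and 1 higher in rNCSC, and 8 lower and 1 higher in SCSC. All 6 lower in rNCSC were probe sets of Wwtr1 or Lats2, and the 8 in SCSC were those with 1 each of Yap1 and Ajuba. Probe sets of 1 gene are not independent of each other, so nothing is read from these counts. Over every probe set tested, 42.4% and 45.1% were called in either direction and 20.6% and 21.3% were called lower. At an adjusted p below 0.05 and any size, 5 were lower and 1 higher in rNCSC, and 6 were lower and 1 higher in SCSC. Over all genes 77.9% and 79.7% passed at any size, 36.8% and 36.6% as lower. The arrays did not overlap for 7 of the 8 in each comparison, Tead1 being the exception, and 6 of the 7 were lower than in BMP NCSC. Of all genes 79.6% and 83.6% had no overlap, and 37.2% and 38.6% had none and were lower. The median difference of the 8 was -0.62 for rNCSC minus BMP NCSC, against 0.07 for all genes, and -0.84 for SCSC, against 0.10.

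Between spheres from DRG and spinal cord in the same medium no difference was found for any member. None of the 8 was called, none had an unadjusted limma p below 0.05 and none had groups without overlap, where 20.7% of all genes had none and 0.00969% were called. None of the 13 member probe sets was called either, where 0.00502% of all were. The adjusted p ran from 0.594 for Amotl2 to 0.960 for Tead2. The interval of the difference was narrowest for Tead1, at -0.17 to 0.26, and widest for Ajuba, at -0.29 to 0.86. For Yap1 it was -0.18 to 0.31, for Wwtr1 -0.21 to 0.60, for Tead2 -0.49 to 0.41 and for Lats2 -0.25 to 0.75. With 3 arrays a group, differences within those bounds are not excluded, and a call would also have needed an absolute log2 difference of 1 or more. Tead2 was lower in rNCSC by 0.04 with all arrays and higher by 0.19 without rNCSC replicate 2. None of the 38 tested genes of the pathway lists described next was called by limma in this comparison either. Of the 38, 4 had an unadjusted limma p below 0.05. The smallest p among the 38 belonged to Amotl1, an angiomotin (0.31, limma adjusted p = 0.320). Next came Amot (0.41, limma adjusted p = 0.321), Taok3 (0.33, adjusted p = 0.331) and Nf2 (-0.38, adjusted p = 0.336). Of all 10320 genes tested, 1413 had an unadjusted limma p below 0.05 in this comparison. Nothing particular to the lists or the members is therefore read from 4 of 38 or none of 8.

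Among genes upstream of the coactivators, calls fell in both directions for the upstream regulators and in 1 direction for the kinase cassette. Of 6 genes of the kinase cassette, 5 had a probe set and were tested. In each comparison with BMP NCSC, 2 of the 5 were called lower and 0 higher. Over all genes 22.6% were called lower in rNCSC and 22.9% in SCSC, and with 5 genes nothing particular to the list is read from these calls. Sav1, the scaffold of the upstream kinases, and Lats1 were lower in rNCSC than in BMP NCSC, by log2 differences of -1.81 (SE 0.14) and -1.36 (SE 0.09). For SCSC minus BMP NCSC the values were -1.68 and -1.36. Stk4 (0.62), Mob1b (0.40) and Mob1a (-0.33) were not called. The list's median was -0.33 for rNCSC and -0.45 for SCSC. With the mean of all its probe sets, Lats1 was at -0.81 and -0.79 and not called.

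Of 17 upstream regulators, 15 were tested. In rNCSC 4 were called lower than in BMP NCSC and 3 higher, and in SCSC 3 lower and 4 higher. Over all genes, 22.6% were called lower and 21.3% higher in rNCSC and 22.9% and 24.0% in SCSC, shares near those of the list. The rNCSC counts were 1 higher without rNCSC replicate 3 and 2 lower without BMP NCSC replicate 3. The median differences, -0.06 and -0.16, were near those of all genes. Frmd6, the FERM protein that promotes the kinase cassette, was at 5.97 ± 0.15 in rNCSC, 5.84 ± 0.14 in SCSC and 9.37 ± 0.23 in BMP NCSC (n = 3 each), a difference of -3.40 for rNCSC (SE 0.14, limma adjusted p = 9.14e-08). The atypical cadherin gene Fat4 was lower by -2.02 in rNCSC and -2.98 in SCSC. Scrib, a polarity scaffold, was higher by 1.08 and 1.25, and the kinase gene Map4k4 by 1.26 and 1.20. Without rNCSC replicate 3, Scrib was at 0.979 in rNCSC and not called. Nf2, the gene of merlin, differed by 0.80 in rNCSC, not called, and 1.18 in SCSC, called, but 0.668 and not called with the mean of all its probe sets. The difference between those values was -0.38 (adjusted p = 0.336). Wtip, a LIM protein related to Ajuba, differed by -0.83 in rNCSC and was not called.

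Of the 4 Vgll genes, whose proteins bind TEAD factors in place of YAP, 2 passed the filter. Vgll3 was at 2.43, 2.64 and 2.69 in rNCSC, 2.63, 2.74 and 2.45 in SCSC, and 8.28, 7.88 and 7.11 in BMP NCSC. It was thus at the lower end of the scale in both groups without BMP4 and expressed in all 3 arrays with it. The size of a difference against levels that low is uncertain and is not given. Without the BMP NCSC arrays Vgll3 would have failed the filter, so its direction was set by the filter. Vgll4, a repressor of TEAD output, differed by 0.80 and 0.64 and was not called. Without rNCSC replicate 3 it was called, at 1.01.

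YAP and TEAD target genes outside the members were mostly higher in BMP NCSC. Of the 19 in the list 16 were tested, and 13 were called lower and 1 higher both in rNCSC and in SCSC than in BMP NCSC. Over all genes 22.6% and 22.9% were called lower. Of the 16, 5 (Ccn2, Axl, Myof, Arhgef17 and Dock5) would have failed the filter without the BMP NCSC arrays and had to be lower. Among the other 11, 8 were called lower, with medians of -2.33 in rNCSC and -2.57 in SCSC against 0.07 and 0.10 for all genes. The values for all genes include genes that passed only with the BMP NCSC arrays, so they are not taken over the same kind of genes as the 11. Foxf2, Nuak2 and Nt5e were under the filter.

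Ccn2, the gene of connective tissue growth factor, was at 3.19, 3.88 and 4.30 in rNCSC, 3.46, 3.57 and 3.24 in SCSC, and 14.36, 14.39 and 14.25 in BMP NCSC. It was thus near the top of the scale in BMP NCSC and at its lower end elsewhere. Its direction was set by the filter, and the size of its difference is uncertain. Its relative Ccn1 was at 5.48, 5.46 and 4.59 in rNCSC, 5.59, 5.76 and 5.46 in SCSC, and 12.17, 11.42 and 11.63 in BMP NCSC, with differences of -6.56 (SE 0.27, limma adjusted p = 8.96e-08) and -6.14. F3, the tissue factor gene, differed by -6.37 and -6.30. Arhgef17, the gene of an exchange factor, was at 3.70 ± 0.12 in rNCSC, 3.93 ± 0.19 in SCSC and 8.71 ± 0.11 in BMP NCSC (n = 3 each). With the mean of all its probe sets, the Arhgef17 differences were -1.66 and -1.55.

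The exceptions in the list were Fjx1, a kinase that acts on Fat cadherins, which was higher in rNCSC (1.88) and SCSC (2.15), and Asap1 (-0.36 and -0.42) and Igfbp3 (-0.75 and -0.79), which were not called. Tgfb2 was called at -1.25 and -1.07, but not in rNCSC without rNCSC replicate 3 (-0.848) or in SCSC without BMP NCSC replicate 3 (-0.893). Ccdc80, a secreted matrix protein, was called, but rNCSC were spread at 6.53, 4.84 and 8.89, against 5.17 to 5.23 in SCSC and 10.56 to 12.12 in BMP NCSC. The target list comes from work in other cell types, and several of its genes also mark mesenchyme. Whether this has a part in the differences of the targets was not tested.

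**Figure D5:**
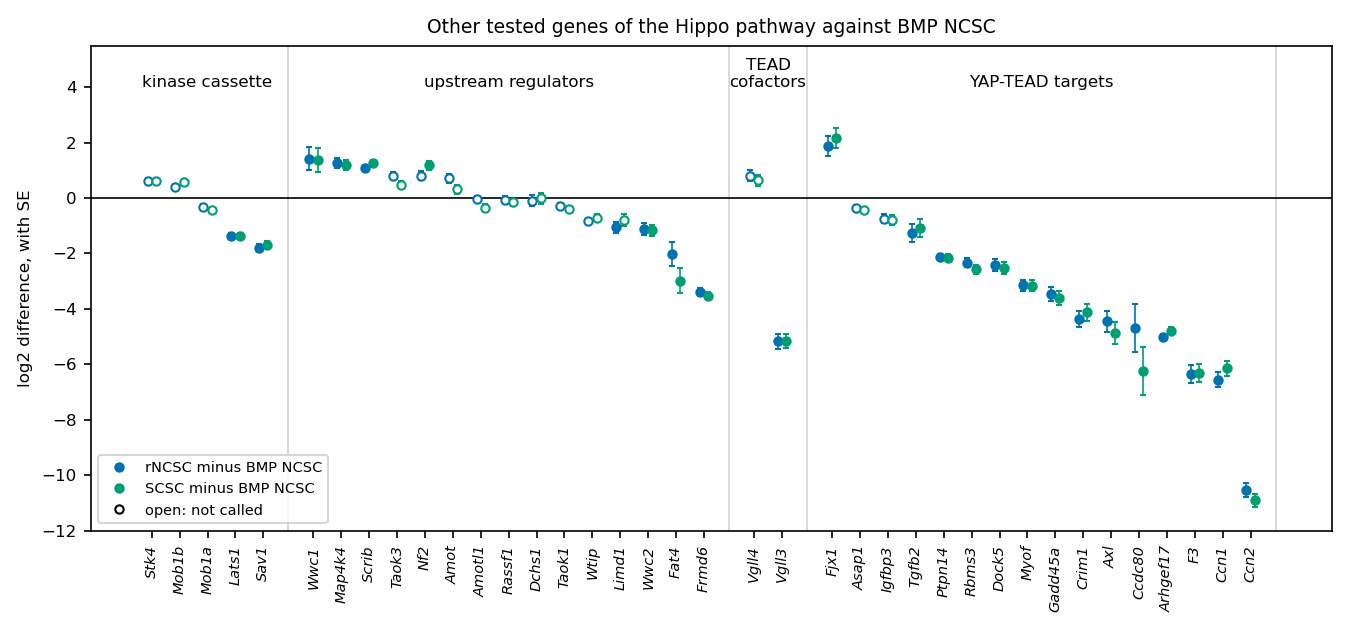
Log2 differences with SE (vertical axis) of the 38 tested genes of the 4 pathway lists against BMP NCSC, for rNCSC (blue) and SCSC (green); open circles were not called. The upstream lists lie on both sides of 0, and of the 11 targets that pass the filter without BMP NCSC, 8 are called below 0. Ccn2, Axl, Myof, Arhgef17, Dock5 and Vgll3 passed only with the BMP NCSC arrays, so their side of 0 was fixed and their plotted sizes are uncertain.

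Markers of cell identity moved along with these differences. The summed level of the 6 mesenchyme and cartilage markers (Col2a1, Acan, Bgn, Col3a1, Acta2 and Cnmd; log2 of the sum) was 6.46 to 6.60 in rNCSC, 6.32 to 6.60 in SCSC and 15.82 to 16.21 in BMP NCSC. That of the 6 meningeal fibroblast markers was 5.76 to 8.59, 5.91 to 6.15 and 13.35 to 14.43. CNS progenitor markers went the other way, from 15.27 to 15.39 in rNCSC and 15.31 to 15.40 in SCSC to 7.57 to 7.95 in BMP NCSC. So did 5 cell cycle markers, at 14.39 to 14.51 in rNCSC, 14.46 to 14.55 in SCSC and 8.36 to 9.61 in BMP NCSC. In bulk RNA a larger share of a cell type and more RNA per cell of a type cannot be told apart. The part of these markers in the differences of the members was not tested.

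The genes whose profile over the 9 arrays was most like a member's were found by the root mean square difference of mean-centred log2 values. For Yap1 these were Rnf167 (0.075), Sirt4 (0.080) and Surf1 (0.083). For Wwtr1 they were Acad11 (0.122), Dnajb9 (0.125) and Pttg1ip (0.135). For Tead2 they were Fzd10 (0.131), Fnbp1 (0.136) and Pinx1 (0.149). For Tead1, whose profile is nearly flat, they were Marchf6 (0.057), Arglu1 (0.057) and Hmox2 (0.061). None of these 12 is in the pathway lists.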

How the data were processed

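The deposited values are log2 expression, 1 per probe set and array, made by the authors with GCRMA, per the submitters' processing notes, which give no version. The method corrects background using probe sequence and normalizes arrays to each other, so it draws unexpressed genes together and hides any change in total RNA per cell. Probe sets were named by the platform annotation. Of 45101, 34958 had 1 gene symbol, 932 had several and 9211 were unlisted, and symbols were updated through gene identifiers, with 34754 probe sets matched to the RefSeq table of GRCm38.p6. A model of group means over the 9 arrays was fitted with limma 3.58.1 (R 4.3.3; residual degrees of freedom 6, prior 2.39), and tests were two-sided, with Benjamini-Hochberg adjustment over 10320 genes or, for single probe sets, 19914. The limma fit was also run on simulated data in which few genes were changed. That setting held far fewer differences than the comparisons with BMP NCSC. The members and lists were chosen with earlier results of these data known. From each list the up to 4 genes with the smallest p were named, with Ccn1 and Ccn2; others, such as the exceptions in a list, were named after their values were seen. Promoter sequences are from RefSeq. Filter, scaling, probe set rule, model and single arrays were varied.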

Additional observations from a re-analysis of the deposited data

How the results depend on the processing

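Over 22 alternatives, Wwtr1, Lats2 and Tead2 kept their direction and their call in both comparisons with BMP NCSC. Their ranges were -2.00 to -1.43, -2.83 to -1.61 and 1.57 to 1.95 for rNCSC, and -2.28 to -1.75, -3.07 to -1.66 and 1.64 to 1.82 for SCSC. With no size limit, 5 members were lower in rNCSC, in place of 2, and 6 in SCSC, in place of 4. Other pathway genes that were higher then numbered 10 in rNCSC and 9 in SCSC. Over all genes, 4250 were higher and 3793 lower in rNCSC under that setting, and 4446 and 3777 in SCSC. Members lower in SCSC numbered 4, 2 with array weights, and 2 to 4 with 1 array left out; members lower in rNCSC then numbered 2 to 3. With the mean of all probe sets, 3 other pathway genes were higher in SCSC. Tead1, never called, changed sign for rNCSC minus BMP NCSC with median-centred arrays (0.0235) and mean probe sets (0.10) and with 1 array left out (-0.10 to 0.0312), and for SCSC with mean probe sets (0.20). For rNCSC minus SCSC, signs also changed for Tead2 with median-centred arrays (0.00876) and 1 array left out (-0.18 to 0.19), for Tead1 with mean probe sets (-0.091), array weights (-0.00128) and 1 array left out (-0.032 to 0.093), for Yap1 with 1 array left out (-0.013 to 0.11), for Stk4 with mean probe sets (-0.093) and 1 array left out (-0.041 to 0.13), and for Vgll3 with centred arrays (0.028), mean probe sets (0.18) and 1 array left out (-0.1 to 0.057); none was called. The cause was not tested. All-gene calls for rNCSC against SCSC were 0 to 18 higher and 0 to 53 lower with 1 array left out, 1 and 3 with an intensity trend, 9 and 5 with array weights, and 0 lower with only the 2 groups, at adjusted p below 0.01 or with the replicate block. Same-numbered arrays of different groups correlated at 0.042 to 0.30 in their deviations, and differently numbered ones at -0.245 to 0.118. Arrays were not paired in the main model because the labels do not say that the numbers pair them. Whether the numbers mark a pairing or a shared batch was not tested. The replicate block left members called at 2 lower and 1 higher in rNCSC and 4 and 1 in SCSC. The number of arrays limits the precision.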
